A study of Homo sapiens with 4 samples.

Results

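A part of the SOX family other than SOX2 was followed here in H9 cells, an established line of human embryonic stem cells. The 10 genes were SOX1, SOX3, SOX4, SOX9, SOX11, SOX12, SOX13, SOX15, SOX17 and SOX21. They were taken by gene symbol from a deposited table of 60671 genes, a rule that uses no measured value. The list itself was chosen with earlier results of these data known. That table holds 19 SOX coding genes, and those outside the list serve for comparison. RNA with a poly(A) tail was sequenced from 2 control libraries and 2 libraries labelled CFIm25 KO+ 3Flag-CFIm25 overexpression, written KO+OE below. CFIm25, the product of NUDT21, belongs to the machinery that cuts and polyadenylates nascent mRNA. All cells grew in mTeSR medium. In the study, cultures given CRISPR plasmids were selected on puromycin, and clones from single cells were expanded.

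The labels name the first group only as control, and the study describes its mock controls as clones that received the CRISPR vector without a guide. The series title speaks of a knockdown where the sample labels speak of a knockout. The study describes edited clones with a shortened CFIm25 protein at a low level, and lentiviral 3XFlag-CFIm25 put back into 1 such clone. Edited cells without re-expression were not analysed here, so the comparison asks how SOX transcripts stood in the re-expressing cells beside control cells. No source says that the 2 libraries of a group came from separate cultures, and p-values then measure only the spread between these libraries, which may be technical.

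SOX proteins are transcription factors that share the HMG box, a domain that contacts the minor groove of DNA and bends it. They are sorted into groups by the likeness of that box. Group B1 (SOX1, SOX2, SOX3) is known for holding stem and neural progenitor cells undifferentiated, with SOX2 pairing with POU5F1 in embryonic stem cells, whereas SOX21 of group B2 mostly represses. Group C (SOX4, SOX11, SOX12) is known from later neuronal differentiation, SOX13 of group D lacks an activation domain of the usual kind, SOX9 of group E directs cartilage and gonad formation, SOX17 of group F directs endoderm, and SOX15 is the lone member of group G.

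Several of these genes share coding sequence, which bears on how reads are assigned to them. Among the 19 SOX coding genes of the table, represented by their canonical GENCODE 44 transcripts, the longest identical run in any of the 171 pairs joined SOX1 and SOX2. It spans 89 bases, at 679 to 767 of the SOX1 transcript and 575 to 663 of the SOX2 transcript, inside the coding part for the HMG box. It is shown because SOX1 was near 0 in these libraries and SOX2 was not, and it is in lower case throughout since every base is shared.

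SOX1 and SOX2 shared run: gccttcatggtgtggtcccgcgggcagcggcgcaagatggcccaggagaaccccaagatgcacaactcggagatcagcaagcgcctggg

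The next longest run was 60 bases, shared by SOX21 with SOX1 and with SOX2, and the median over all pairs was 18 bases. Reads were 150 bases long and paired, so a read could lie across the end of any of these runs. SOX1 was also reached by the study's RT-qPCR primers, whose amplicon of 287 bases lies at 1273 to 1559 of the transcript, within the coding part at 511 to 1683 and outside the shared run. Neither primer matched another SOX transcript.

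SOX1-F1: cagtacagccccatctccaac
SOX1-R1: gcgggcaagtacatgctga

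The promoters of 4 members are shown because they span the range of levels described next. SOX3 was the most abundant member, SOX12 and SOX4 are group C genes at almost the same level, and SOX1 was nearly silent. Each line gives the 250 bases before the start of the RefSeq gene in GRCh38.p14, read 5′ to 3′ on the strand of the gene. The letters searched on both strands were ATGCAAAT, the octamer of POU factors, ACAATG and ACAAAG, cores of SOX sites, CCAAT, the box bound by NF-Y, and TATAAA, a form of the TATA box. Matches on either strand stand in capitals. Only these exact letters were searched, so other forms of a motif, such as tatataag near the end of the SOX3 line, stay in lower case.

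SOX3: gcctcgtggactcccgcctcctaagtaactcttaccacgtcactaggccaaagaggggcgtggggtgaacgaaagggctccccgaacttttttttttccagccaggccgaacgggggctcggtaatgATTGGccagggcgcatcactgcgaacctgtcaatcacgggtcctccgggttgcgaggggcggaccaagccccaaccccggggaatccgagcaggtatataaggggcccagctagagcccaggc
SOX12: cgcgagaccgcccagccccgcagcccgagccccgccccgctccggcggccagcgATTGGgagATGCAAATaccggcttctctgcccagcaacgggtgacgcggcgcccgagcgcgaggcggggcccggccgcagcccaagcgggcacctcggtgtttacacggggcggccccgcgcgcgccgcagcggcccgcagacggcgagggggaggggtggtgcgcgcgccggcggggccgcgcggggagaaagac
SOX4: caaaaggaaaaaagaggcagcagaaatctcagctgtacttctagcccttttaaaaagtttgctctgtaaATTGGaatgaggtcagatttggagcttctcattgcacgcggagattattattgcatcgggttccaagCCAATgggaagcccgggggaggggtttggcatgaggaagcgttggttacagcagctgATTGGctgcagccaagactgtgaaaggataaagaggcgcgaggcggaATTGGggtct
SOX1: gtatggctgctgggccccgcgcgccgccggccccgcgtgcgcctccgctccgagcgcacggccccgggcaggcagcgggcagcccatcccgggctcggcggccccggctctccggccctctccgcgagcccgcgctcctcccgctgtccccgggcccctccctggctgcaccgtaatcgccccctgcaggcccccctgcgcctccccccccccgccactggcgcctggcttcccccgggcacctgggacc

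These windows are chrX:140505070-140505319 on the minus strand for SOX3, and on the plus strand chr20:325302-325551 for SOX12, chr6:21593501-21593750 for SOX4 and chr13:112066899-112067148 for SOX1. Content and matches were counted over the 300 bases that also take in the first 50 bases of the gene. SOX12 and SOX1 were rich in GC, with SOX12 at 80.3%, and lay above 97.7% and 97.4% of the 35116 promoters in the RefSeq set, whose median was 58.7%. SOX3 stood near the middle at 60.3% and SOX4 lower at 49.3%, with 8 CG dinucleotides against 54 in SOX12.

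The SOX4 window held CCAAT 4 times, at 181, 114, 57 and 10 bases before the start, and 0.991% of all promoters held it at least that often. SOX12 held CCAAT 196 bases and ATGCAAAT 188 bases before the start. The octamer was found in 1.77% of all promoters and CCAAT in 34.6%. SOX3 held CCAAT once, 123 bases before the start, and SOX1 held none of the searched letters. ACAATG occurred in 10.8%, ACAAAG in 16.1% and TATAAA in 11.5% of all promoters. Of the other members 2 were searched. SOX21 held CCAAT 214 bases and the reverse complement of TATAAA 146 bases before its start, and SOX13 held no match. The promoters of SOX9, SOX11, SOX15 and SOX17 were not searched. A match describes letters only and says nothing of binding.

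Levels were in TPM, a share of all transcripts that corrects for transcript length and so allows genes to be compared with each other. Fold changes are differences of log2(TPM + 1), KO+OE against control, from limma fitted to the 12319 genes whose mean over the 4 libraries reached 1 TPM, and adjusted p-values are over all of those. On that scale the change of a low gene is understated. In bulk RNA, fewer cells of a kind and less RNA per cell cannot be told apart. Of the 10 members, 7 passed the filter, 9 were above 0 in some library and SOX17 was listed at 0 in all 4.

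The cells were first checked against their label. Of 12 embryonic stem cell markers, 11 had a mean of at least 1 TPM, led by POU5F1 at 2164 to 2212 TPM, and their summed level was 3517 and 3496 TPM in control and 3486 and 3487 TPM in KO+OE. NUDT21 itself was at 161 and 152 TPM in control and 162 and 157 TPM in KO+OE, and reads from the lentiviral copy cannot be told apart from those of the edited gene in this table. Its level did not separate the groups. Over all genes tested, limma called 1 at an adjusted p under 0.05, 0.00812% of 12319, and 656 at an unadjusted p under 0.05, 5.33%. The one called was AC125388.1, named after its values were seen, listed at 0 in the controls against 8.63 and 8.22 TPM in KO+OE.

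None of the 7 tested SOX members was called, 0 at an adjusted and 0 at an unadjusted p under 0.05, with adjusted p-values between 0.938 and 0.990. Their log2 fold changes ran from -0.16 for SOX21 to 0.09 for SOX13, with 2 above 0 and 5 below. The folds of the low genes moved with the pseudocount, SOX21 to -0.28 with 0.1 and -0.05 with 5, and SOX11 to -0.14 and -0.05. The median was -0.05, beside -0.01 over all genes tested, of which 5609 lay above 0 and 6710 below. Every one of the 7 95% confidence intervals lay within a 2-fold change of TPM + 1 in either direction, which held for 11409 of the 12319 genes. For a low gene such as SOX21 this does not bound the change in TPM itself. A change inside those intervals could not be told from no change. Larger changes could also go uncalled in this design. The lowest log2 fold change over all genes tested, -4.02, did not pass an adjusted p under 0.05.

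**Figure D1:**
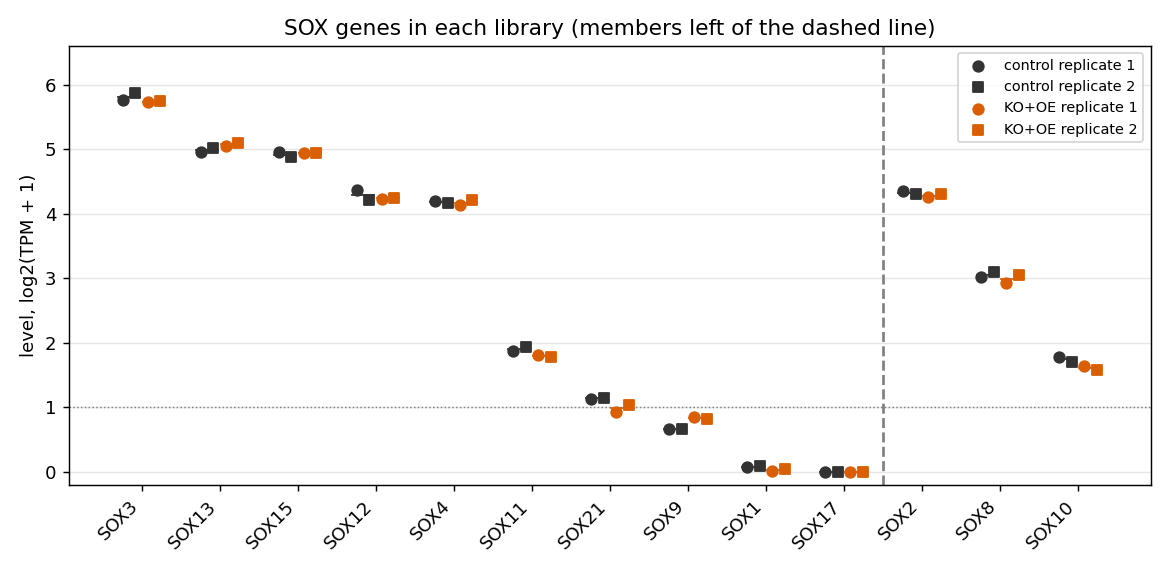
Level of each SOX gene as log2(TPM + 1) on the vertical axis, with 1 point per library, control in dark grey and KO+OE in orange, short bars at the group means and a dotted line at 1 TPM. The 10 members run from SOX3 at a mean of 53.8 TPM to SOX17 at 0, and the points of the groups lie close together for each gene beside the distance between genes.

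The order of levels was the same in every library. SOX3 led with a mean of 53.8 TPM over the 4 libraries, followed by SOX13 at 31.7, SOX15 at 29.4, SOX12 at 18.3 and SOX4 at 17.1 TPM. After a 6.53-fold step came SOX11 at 2.61 TPM, SOX21 at 1.09, SOX9 at 0.680 and SOX1 at 0.0375 TPM. SOX3 stood above 93.1% of all genes with a value above 0, and SOX4 still above 84.6%, whereas SOX9 stood near the middle at 49.8%.

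A pair of these steps was narrow. SOX13 and SOX15 differed 1.08-fold in mean, with the lowest SOX13 value at 30.11 TPM and the highest SOX15 value at 30.01 TPM. SOX12 and SOX4 differed 1.07-fold, with 17.58 TPM as the lowest SOX12 value and 17.57 TPM as the highest SOX4 value. The gap between the ranges was in both pairs smaller than the spread of either gene over the libraries. The other neighbours above 0 differed by at least 1.60-fold.

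The members together summed to 154.77 and 156.06 TPM in control and to 152.40 and 155.45 TPM in KO+OE. The means were 155 ± 0.912 and 154 ± 2.16 TPM (SD, n = 2 each), and KO+OE stood at 99.0% of control with overlapping groups. This was 83.9% to 84.5% of the summed TPM of all 19 SOX coding genes. SOX3 took 28.5% to 30.9% of that sum, SOX13 16.3% to 18.0%, SOX15 15.2% to 16.5%, and SOX2, for comparison, 10.1% to 10.5%.

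Group B1 held both the highest member and one of the lowest. SOX3 (ENSG00000134595) is a gene with 1 exon on the minus strand at chrX:140502985-140505069, known from neural progenitors and pituitary development. It was at 53.11 and 57.34 TPM in control and 52.00 and 52.61 TPM in KO+OE, means of 55.2 ± 2.99 and 52.3 ± 0.431 TPM. Both KO+OE libraries lay below both control libraries, with control replicate 2 standing apart from the other 3. The log2 fold change was -0.08 (95% confidence interval -0.22 to 0.07, limma adjusted p = 0.942), which allows anything from 14.2% lower to 4.89% higher in TPM + 1. Leaving out control replicate 2 moved it to -0.02, and leaving out control replicate 1 to -0.13.

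SOX1 (ENSG00000182968), the early marker of neural ectoderm in the group, also has 1 exon, at chr13:112067149-112071706 on the plus strand. It was at 0.05 and 0.06 TPM in control and 0.01 and 0.03 TPM in KO+OE, steps of a few hundredths in a table rounded to 2 decimals. These values are too low for a fold to be read. SOX2, the remaining gene of group B1, was at 19.36 and 18.68 TPM in control and 18.19 and 18.72 TPM in KO+OE, and the groups overlapped. SOX3 exceeded SOX2, and SOX2 exceeded SOX1, in every library.

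SOX21 (ENSG00000125285), the group B2 repressor, has 1 exon on the minus strand at chr13:94709622-94712545. It was at 1.18 and 1.22 TPM in control and 0.91 and 1.04 TPM in KO+OE, with no overlap. Its mean over all libraries passed the filter, while its KO+OE mean of 0.975 ± 0.0919 TPM was below 1 and its control mean of 1.20 ± 0.0283 TPM above. The log2 fold change was -0.16 (95% confidence interval -0.61 to 0.30, limma adjusted p = 0.963), the widest interval of the members. The antisense gene SOX21-AS1, which overlaps it in GENCODE 44 but not by the RefSeq spans, was at 0.31 and 0.22 TPM in control and 0.20 and 0.15 TPM in KO+OE, also lower without overlap.

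Group C, whose genes have 1 exon each, held SOX4 and SOX12 between 16.48 and 19.65 TPM and SOX11 far below them. SOX4 (ENSG00000124766, chr6:21593751-21598619, plus strand) is widely expressed in progenitors. It was at 17.40 and 16.90 TPM in control and 16.48 and 17.57 TPM in KO+OE, so the KO+OE libraries held both the lowest and the highest value. Its log2 fold change was -0.01 (95% confidence interval -0.20 to 0.18, limma adjusted p = 0.990), the nearest to 0 of the 7, with its sign turning under both other scalings of the libraries.

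SOX12 (ENSG00000177732, chr20:325552-330224, plus strand), the weakest activator of the group, was at 19.65 and 17.58 TPM in control and 17.78 and 18.03 TPM in KO+OE. Control replicate 1 was the highest and control replicate 2 the lowest, so the control pair enclosed the KO+OE pair. The log2 fold change was -0.05 (95% confidence interval -0.26 to 0.16, limma adjusted p = 0.980), and 0.02 without control replicate 1.

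SOX11 (ENSG00000176887, chr2:5692384-5701385, plus strand), a factor of immature neurons, was at 2.68 and 2.82 TPM in control and 2.52 and 2.44 TPM in KO+OE. KO+OE was lower without overlap, at 2.48 ± 0.0566 against 2.75 ± 0.0990 TPM. This gave a log2 fold change of -0.11 (95% confidence interval -0.46 to 0.24, limma adjusted p = 0.968). Its transcript is the longest of the members, 9002 bases, and has the lowest GC content, 48.6%. The sum over group C was 39.73 and 37.30 TPM in control and 36.78 and 38.04 TPM in KO+OE.

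SOX13 of group D (ENSG00000143842, chr1:204073115-204127743, plus strand) is the one member with many exons, 14 in its canonical transcript. It was at 30.11 and 31.27 TPM in control and 32.18 and 33.20 TPM in KO+OE, higher without overlap. The means were 30.7 ± 0.820 and 32.7 ± 0.721 TPM. The log2 fold change was 0.09 (95% confidence interval -0.06 to 0.24, limma adjusted p = 0.938), the lowest p of the members at 0.182 unadjusted. SOX5 and SOX6, which pair with each other in cartilage, stayed below 1 TPM in every library, so that SOX13 made up nearly all group D transcripts.

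SOX15 of group G (ENSG00000129194, chr17:7588178-7590094, minus strand, 2 exons), known from muscle progenitors and placenta, was at 30.01 and 28.29 TPM in control and 29.72 and 29.77 TPM in KO+OE. The control pair enclosed the KO+OE pair. SOX15 gave a log2 fold change of 0.03 (95% confidence interval -0.13 to 0.18, limma adjusted p = 0.988). Its transcript is the shortest, 1320 bases, and in GENCODE 44 the coding gene MPDU1 overlaps it on the opposite strand. Whether counting used strand is not given in the sources used here, and without it reads from the overlap cannot be told apart. By GENCODE 44 the same holds for SOX12 beside NRSN2-AS1, whose RefSeq spans do not overlap, and for SOX4, SOX9 and SOX13, each across from a noncoding gene without a symbol. SOX11 overlaps a noncoding gene without a symbol on the same strand, as SOX1 and SOX2 do SOX1-OT and SOX2-OT. There even strand could not tell reads from the overlap apart.

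**Figure D2:**
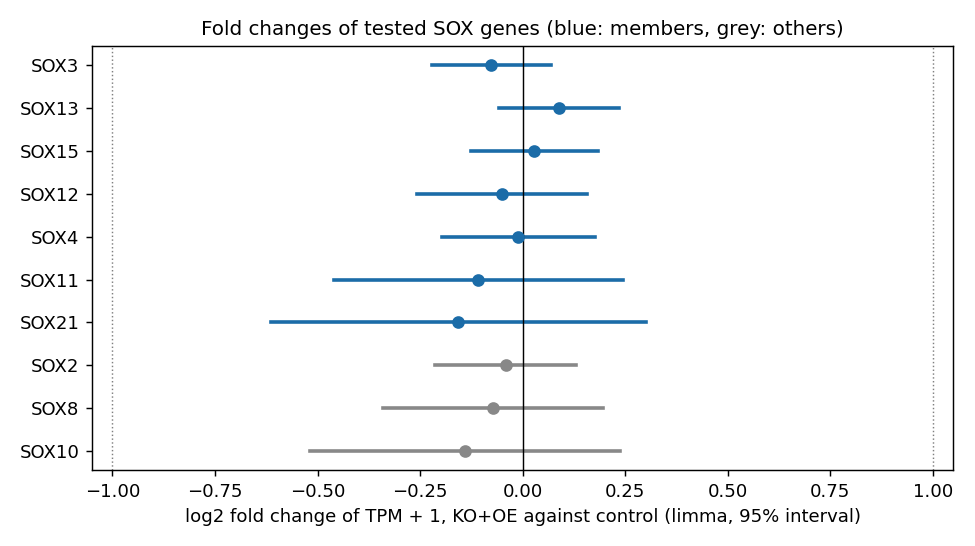
Log2 fold change of TPM + 1, KO+OE against control, on the horizontal axis for the 7 tested members in blue and SOX2, SOX8 and SOX10 in grey, with bars for limma's 95% confidence intervals and dotted lines at a 2-fold change. Every bar crosses 0, the narrowest belonging to the abundant genes and the widest to SOX21, from -0.61 to 0.30.

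The width of these intervals followed the level. For genes at 1 to 5 TPM the median half-width of the 95% interval was 0.471 on the log2 scale, against 0.278 at 5 to 20 TPM and 0.164 at 20 to 100 TPM. The median absolute difference between the 2 control libraries was 0.189, 0.120 and 0.0696 in those classes. SOX3, SOX13 and SOX15 therefore had the tightest bounds among the members, and SOX11 and SOX21 the loosest.

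**Figure D3:**
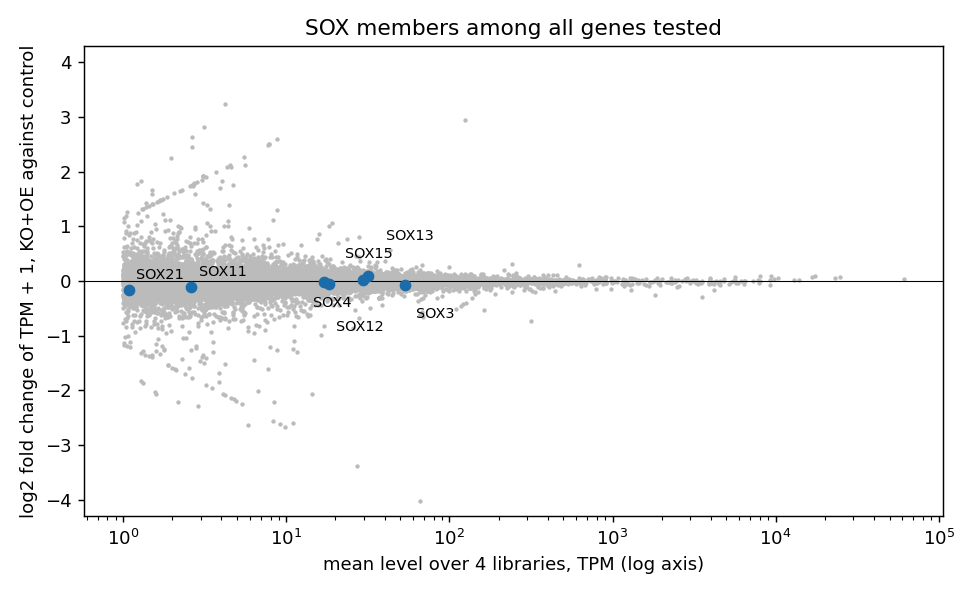
Log2 fold change of TPM + 1, KO+OE against control, plotted against the mean TPM over 4 libraries on a log axis, with all 12319 genes tested in grey and the 7 tested members in blue. The members lie between -0.16 and 0.09, inside the band of other genes of their level.

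Separation of the groups was read beside its frequency in the table. In 4 of the 7 tested members the groups did not overlap, 1 higher in KO+OE (SOX13) and 3 lower (SOX3, SOX11, SOX21). Over all genes tested the groups did not overlap for 34.1%, 14.5% higher and 19.6% lower. With SOX9 and SOX1 the count was 6 of the 9 members above 0, 2 higher and 4 lower, where 27.8% of 26942 genes above 0 did not overlap, 12.4% higher and 15.4% lower. SOX1 counts among the lower ones on values of 0.05 and 0.06 TPM in control and 0.01 and 0.03 TPM in KO+OE, too low to be read. None of the 9 members passed an unadjusted p under 0.05.

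The remaining members stood below 1 TPM in every library. SOX9 (ENSG00000125398, group E, chr17:72121020-72126416, plus strand, 3 exons) was at 0.58 TPM in each control library and 0.80 and 0.76 TPM in KO+OE. KO+OE was higher without overlap, with a mean of 0.780 ± 0.0283 TPM, 134% of control. In the fit to all 26942 genes above 0, made as an alternative without the filter, its log2 fold change was 0.17 (95% confidence interval -0.19 to 0.53, limma adjusted p = 0.873). That fit called 0 genes at an adjusted p under 0.05, 0.0%, and 1314 at an unadjusted p under 0.05, 4.88%. SOX9-AS1, on the opposite strand and overlapping SOX9 in GENCODE 44 but not by the RefSeq spans, was at 0.10 and 0.11 TPM in control and listed at 0 in both KO+OE libraries.

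The group E relatives of SOX9 were more abundant than it. SOX8 was at 7.08 and 7.54 TPM in control and 6.57 and 7.24 TPM in KO+OE, and SOX10, a neural crest and glial factor, at 2.43 and 2.26 TPM in control and 2.10 and 1.97 TPM in KO+OE. Their limma adjusted p-values were 0.974 and 0.960. In GENCODE 44 SOX10 overlaps the coding gene POLR2F on the opposite strand.

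SOX17 (ENSG00000164736, chr8:54457935-54460892, plus strand, 2 exons), the group F factor of definitive endoderm and primordial germ cells, was listed at 0 in all 4 libraries. Its group F relative SOX18, a factor of blood and lymph vessels, was at 0.40 and 0.36 TPM in control and 0.14 and 0.13 TPM in KO+OE, 35.5% of control. In the fit without a filter SOX18 had an unadjusted limma p of 0.0160 and an adjusted p of 0.873, so it did not pass over all genes. SOX14, the other gene of group B2, was at 0.29 and 0.38 TPM in control and 0.67 and 0.51 TPM in KO+OE, higher without overlap, with an adjusted p of 0.873. The remaining coding genes, SOX5, SOX6, SOX7 and SOX30, ranged from 0 to 0.56 TPM.

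Noncoding genes named after SOX genes were also low. SOX1-OT, a transcript that spans SOX1 on the same strand, was at 0.34 and 0.18 TPM in control and listed at 0 in both KO+OE libraries. SOX1-OT and SOX9-AS1 had unadjusted limma p-values of 0.0155 and 0.0168 without a filter, both with an adjusted p of 0.873. SOX2-OT, at 0.07 and 0.45 TPM in control and 0.18 and 0.08 TPM in KO+OE, differed more between the control libraries than between the group means. SOX5-AS1 was listed at 0 in all 4 libraries.

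**Figure D4:**
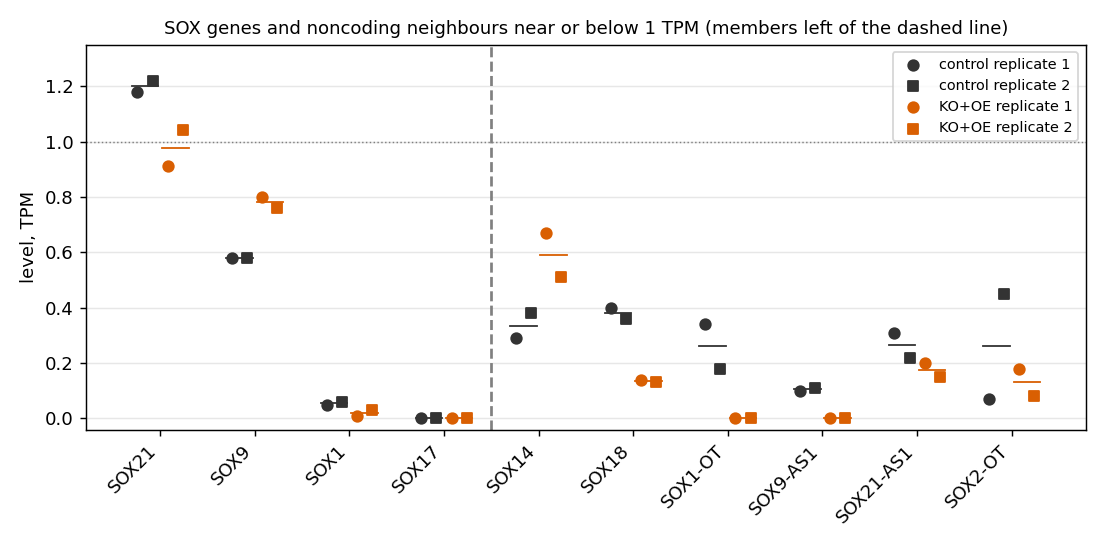
TPM of members and of other SOX and noncoding SOX genes near or below 1 TPM, with 1 point per library, control in dark grey and KO+OE in orange, bars at the group means and a dotted line at 1 TPM. SOX9 lies higher in KO+OE, at 0.76 to 0.80 against 0.58 TPM, SOX21 and SOX18 lie lower, SOX1 stays at or below 0.06 TPM and SOX17 lies at 0.

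Markers of the lineages that these low members serve differed in level. Most neural ectoderm, definitive endoderm, mesoderm and neural crest markers averaged below 1 TPM, while all 5 cartilage markers averaged at least 1 TPM. Of 10 neural ectoderm markers 3 had a mean of at least 1 TPM, NES at 79.59 to 82.77 TPM, TUBB3 at 93.39 to 95.66 TPM and OTX2. The other 7 stayed below 1 TPM in every library, with HES5 listed at 0 in all 4. OTX2, a homeobox factor of forebrain and of pluripotent cells, was at 11.32 and 10.80 TPM in control and 8.77 and 9.17 TPM in KO+OE. OTX2 had a log2 fold change of -0.27, with an unadjusted limma p of 0.0241 and an adjusted p of 0.928, the one gene of the list past the unadjusted threshold. The summed level of that list was 187 and 189 TPM in control and 185 and 183 TPM in KO+OE, and its part in the SOX values was not tested.

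Of 8 definitive endoderm markers 2 were tested, GATA6 and CER1, with 0 past an unadjusted p under 0.05 and a summed level of 8.88 and 10.7 TPM in control and 7.26 and 9.57 TPM in KO+OE. Most of that sum was GATA6, at 5.96 and 8.39 TPM in control and 4.35 and 7.31 TPM in KO+OE. The other 6 definitive endoderm markers stayed below 1 TPM in every library. FOXA2, which defines that lineage together with SOX17, was at 0.02 TPM in control replicate 1 and listed at 0 in the other 3. Of 7 mesoderm and 7 neural crest markers 2 of each were tested, with 0 called in either list. Cartilage markers, matrix genes driven by SOX9 in chondrocytes, were all 5 tested with 0 called and a median log2 fold change of 0.01. COL2A1 was at 28.29 and 25.87 TPM in control and 26.11 and 27.38 TPM in KO+OE, well above SOX9 itself.

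Genes that work with SOX factors were read beside the members. Of 11 partners and targets in embryonic stem cells 9 were tested, with 0 called at an adjusted or an unadjusted p under 0.05, 5 folds above 0 and 4 below. POU5F1, the partner of SOX2, was at 2212 and 2185 TPM in control and 2164 and 2195 TPM in KO+OE. UTF1, a target of the SOX2 and POU5F1 pair, was at 14.51 and 12.85 TPM in control and 11.81 and 11.50 TPM in KO+OE, with the lowest unadjusted limma p of the list, 0.0676.

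Of 24 other HMG-box genes 21 were tested, with 0 called, 13 folds above 0 and 8 below, and a median of 0.01. TCF7L1, which represses WNT targets in embryonic stem cells, was at 83.38 and 89.45 TPM in control and 89.25 and 91.85 TPM in KO+OE. TFAM, the HMG-box protein that packs mitochondrial DNA, had the lowest p of the list, 0.0686 unadjusted in limma, at 1.25 and 1.74 TPM in control and 0.69 and 0.90 TPM in KO+OE. Of 6 WNT and catenin partners 2 were tested and 0 called. CTNNB1, which encodes beta-catenin, was at 17.52 and 17.81 TPM in control and 19.20 and 18.06 TPM in KO+OE.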

How the data were processed

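Poly(A) RNA of 2 control and 2 KO+OE libraries of H9 cells was sequenced. The authors deposited 1 value per gene and library, read here as TPM because each column summed to 986853 to 987078 and held decimals. Depth is therefore unknown and no counting error was computed. The submitters' processing notes name HISAT2, featureCounts, Subread, DESeq2 and hg38. The annotation version is not given in the sources used here. The table held 0 other per-sample columns.

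Groups and replicate numbers came from sample titles. Genes averaging at least 1 TPM were tested on log2(TPM + 1) with limma 3.58.1 (eBayes with a mean-dependent prior, two-sided) in R 4.3.3, checked on simulated data, with Benjamini-Hochberg adjustment over 12319 genes. Means are given with SD. Members and gene lists were chosen with earlier results of these data known. SOX genes and their noncoding namesakes were named in full. Of the lists, genes averaging at least 1 TPM or past an unadjusted p under 0.05 could be named, and examples were taken from them; HES5 and FOXA2 were named afterwards. Positions and promoters are from RefSeq GRCh38.p14, transcript features from GENCODE 44.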

Additional observations from a re-analysis of the deposited data

How the results depend on the processing

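The tests were repeated with pseudocounts of 0.1 and 5, without a filter, with a mean of at least 5 TPM, with median-ratio scaling, with quantile normalization, without the mean-dependent prior, with a replicate block and without each library in turn, 12 alternatives in all. A library left alone in its group was assumed to vary like those of the other group. The count of SOX members past an adjusted or an unadjusted p under 0.05 was 0 in each, and the lowest adjusted p was 0.873. Of 82 single fold changes, 76 kept their sign. SOX4 turned to 0.0017 with median-ratio scaling, 0.00041 with quantile normalization, 0.0094 without control replicate 1 and 0.033 without KO+OE replicate 1, SOX12 to 0.025 without control replicate 1, and SOX15 to -0.012 without control replicate 2. The members' median log2 fold change was -0.0105 with a mean of at least 5 TPM, where 5 members were left, and -0.0607 to 0.0094 when a library was left out, the one value above 0 coming without control replicate 1. With a library left out, SOX3 ranged from -0.13 to -0.02, SOX4 from -0.0541 to 0.033, SOX12 from -0.127 to 0.025 and SOX15 from -0.012 to 0.0699. Over all genes, the count past an adjusted p under 0.05 was 0 under 9 of the alternatives and 1 under the other 3, and the count past an unadjusted p under 0.05 was 412 to 1314, the first with a mean of at least 5 TPM and the second without a filter. The labels do not say whether the replicate numbers pair the libraries. The differences between replicate 1 and 2 correlated at -0.05 over 12319 genes between the groups. This shows no broad shared shift but cannot settle whether libraries were handled in pairs. With the replicate block the lowest member p in limma was 0.203 unadjusted and 0.908 adjusted, for SOX13, 0 members passed at either threshold, and the median stayed at -0.05.

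With 2 libraries a group and no read counts, precision rests on the spread between libraries. For SOX1 a step of 0.01 TPM, the rounding of the table, is a sizeable part of its values, and SOX1 and SOX17 give no usable fold.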

Other observations

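Of the 5 members above 5 TPM, SOX3, SOX12, SOX13 and SOX15 had canonical transcripts of 63.3%, 62.2%, 60.6% and 62.0% GC, while SOX4 had 52.5%. The median over genes tested was 51.8%. Of the lower members, SOX17, SOX1 and SOX21 also lay above that median, at 58.2%, 55.7% and 55.6%. SOX9 and SOX11 lay below it, at 51.1% and 48.6%. Across the 12147 genes tested with a known GC content, level and GC correlated with a Spearman rho of 0.264 to 0.277 in each of the 4 libraries, a description over genes that share libraries and are not independent replicates.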
